A study of Arabidopsis thaliana with 20 samples.

Results

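The C1 domain genes of *Arabidopsis thaliana* were examined in chromatin of seedlings with reduced levels of the histone variant H3.3. They were taken as the protein-coding nuclear genes of the TAIR10.1 annotation (RefSeq) whose product text holds the words C1 domain in any letter case, which gave 151 of 27444 genes. AT5G42280 was among them, and this gene had drawn attention to the family by its low H3K36me3 in the knockdown, measured in these same libraries. Its H3K36me3 values are therefore given as a description, and the question asked was whether the loss was shared by the other C1 domain genes.

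Seedlings of the Columbia ecotype, 10 days old and grown on MS medium with glucose, were used for chromatin immunoprecipitation and sequencing (ChIP-seq). WT was compared with *h3.3kd*. The *h3.3kd* plants combined the T-DNA insertion alleles *htr4-2* and *htr8-2* with an artificial microRNA against *HTR5* that is driven by the *HTR5* promoter (*HTR4*, *HTR5* and *HTR8* encode H3.3). Which *h3.3kd* line went into ChIP is not given in the sources used here. Antibodies to 5 targets were applied to both genotypes in 2 replicates, giving 20 libraries: total H3, its methylated forms H3K4me3 and H3K36me3, the variant H2A.Z, and linker histone H1. The labels do not say whether replicates came from separate cultures, so p-values measure the spread between these libraries, which may be technical.

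Libraries held between 8688846 and 68090065 reads, and the H3 libraries between 8688846 and 15544533. Reads of chromatin do not measure transcripts of the targeted genes. The labels could be checked in part at the promoter that the transgene shares with *HTR5*: RPM (reads per 1000000 reads of the library) in the 500 bp upstream of *HTR5* was higher in *h3.3kd* in 10 of 10 pairs of libraries with the same antibody and replicate number, by a factor of 1.12 to 1.90. Both *h3.3kd* libraries lay above both WT libraries for 4 of the 5 antibodies. For H1 the groups overlapped, at 3.38 and 4.57 RPM in *h3.3kd* against 2.12 and 3.44 RPM in WT. How many other promoters were higher in all pairs was not counted. Replicate 2 of H3K4me3 and H2A.Z, in both genotypes, was deposited in another format without strand.

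The C1 domain is a small finger of cysteines and histidines that hold zinc. In animal protein kinase C it binds the lipid diacylglycerol, while in plants the divergent form, often called DC1, is repeated many times in a large family of proteins, most of them without a known function. H3K36me3 and H3K4me3 accompany transcription and in plants both peak over the 5′ part of active genes. H2A.Z sits near the start site of active genes and spreads over the body of genes that respond to stimuli, and H1 binds linker DNA and is denser where genes are silent. H3.3 replaces H3 outside replication and is densest toward the 3′ end of expressed genes.

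Of the 151 genes, 141 had the product text Cysteine/Histidine-rich C1 domain family protein, 7 cysteine/histidine-rich C1 domain protein, and 3 DC1 domain-containing protein. They lay on all nuclear chromosomes, with 27 on chromosome 1, 38 on chromosome 2, 27 on chromosome 3, 23 on chromosome 4 and 36 on chromosome 5. A total of 83 stood in 28 runs of 2 to 5 C1 domain genes no more than 10 kb apart, and 68 stood alone. A single exon made up 69.5% of them, against 18.9% of all protein-coding genes. Cysteine and histidine made up a median of 14.3% of their protein residues (all genes 3.99%), and 145 of the 151 lay above the 95th percentile of all genes. The pair of cysteines spaced by 2 residues (C-x-x-C) occurred a median of 15 times in them, with 1 gene holding none. That gene was AT1G29179, with 0.42% cysteine and histidine. Second lowest was AT1G60420, annotated as the nucleoredoxin NRX1, a redox protein of the thioredoxin fold, at 3.98%.

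Coding sequence of the 30 codons richest in cysteine and histidine is shown for 3 of these genes, because it is the trait by which the family was named. It was read from TAIR10.1 as the strand of the gene, with the codons of cysteine (tgt, tgc) and histidine (cat, cac) in capitals. AT5G42280 had 8 such codons in chr5:16906877-16906966 (minus strand), downstream of its first 25%. AT2G17740 had 8 in chr2:7707310-7707399 (minus strand), and AT1G60420 had 7 in chr1:22264046-22264135 (plus strand).
AT5G42280: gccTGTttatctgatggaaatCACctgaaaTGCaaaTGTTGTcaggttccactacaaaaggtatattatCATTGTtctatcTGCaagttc
AT2G17740: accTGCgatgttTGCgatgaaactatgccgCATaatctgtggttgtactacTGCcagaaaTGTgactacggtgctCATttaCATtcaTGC
AT1G60420: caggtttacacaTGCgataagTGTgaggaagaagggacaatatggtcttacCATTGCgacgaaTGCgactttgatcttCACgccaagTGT
AT5G42280 is the gene with the H3K36me3 loss, AT2G17740 had the lowest value among the other C1 domain genes, and AT1G60420 had one of the highest H3K36me3 levels in WT.

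Reads were counted in 3 windows per gene: the 500 bp before the start site (promoter), the first 25% of the gene and its last 50%. Each mark is given as log2 of its RPM over the RPM of H3 in the matching library (same genotype, same replicate number), called mark/H3, with 0.1 added to both, and H3 itself as log2 of RPM plus 0.1. The added 0.1 makes differences of sparsely covered windows too small. Differences below are *h3.3kd* minus WT on this log2 scale. The marks share the same H3 libraries as denominator, so that their changes are not independent of each other. Genes under 500 bp were left out, among them AT2G21810 and AT5G16430, and windows needed a mean of 10 reads, which left 148 or 149 of the 151 genes per comparison. A lower ratio in some cells of the seedling and a smaller shift in all of them cannot be told apart.

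AT5G42280 lies at chr5:16905202-16908059 on the minus strand, with 3 exons and 694 residues. It is a well-marked gene in WT: its first 25% stood at the 96.0th percentile of all genes in H3K4me3, the 93.0th in H2A.Z and the 70.6th in H3K36me3. In the first 25%, H3K36me3/H3 stood at 0.85 and 1.15 (WT) against -1.34 and -0.81 (*h3.3kd*), from 344, 259, 36 and 59 H3K36me3 reads. Both *h3.3kd* values lay below both WT values and below 0. The difference was -2.08 (SE 0.36), the lowest of 25671 genes tested, with -2.19 in replicate 1 and -1.97 in replicate 2.

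**Figure D1:**
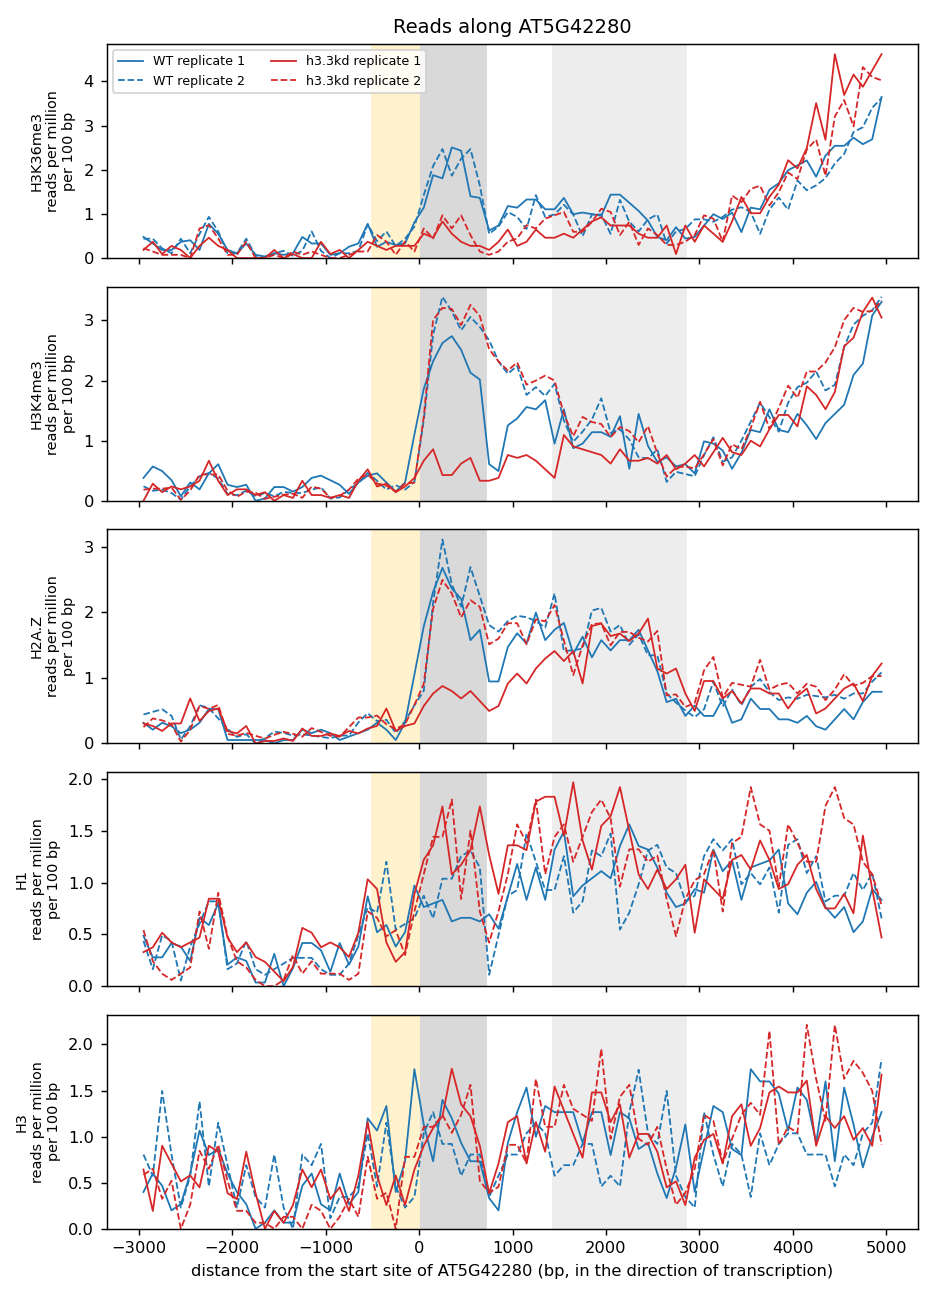
RPM in 100-bp bins along AT5G42280, by distance from its start site, for each of the 20 libraries (WT blue, *h3.3kd* red, replicate 1 solid, replicate 2 dashed). The promoter is shaded yellow, the first 25% dark grey and the last 50% light grey. H3K36me3 was lower in both *h3.3kd* libraries over the first 25%, while H3K4me3 and H2A.Z were far lower there in *h3.3kd* replicate 1 than in the other libraries.

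Along AT5G42280 the difference was widest within 1000 bp of the start site. Over the first 500 bp, H3K36me3/H3 was 0.84 and 1.08 for WT against -1.16 and -0.61 for *h3.3kd*. Between 500 and 1000 bp, H3K36me3 was 5.31 and 6.42 RPM for WT against 1.75 and 1.27 RPM for *h3.3kd*, a difference in H3K36me3/H3 of -2.28. From 1000 bp to 2500 bp the differences narrowed to between -0.91 and -0.73. In the last 50%, H3K36me3/H3 was -0.02 and -0.04 for WT against -0.74 for both *h3.3kd* libraries, a difference of -0.71 (SE 0.32, limma adjusted p = 0.656). In the promoter, where 73.1% of 50-base words occur once in the genome, H3K36me3 was 2.06 and 2.42 RPM for WT against 1.29 and 1.49 RPM for *h3.3kd*, and H3 was 5.26 and 2.65 RPM against 2.32 and 2.28 RPM. Both antibodies were thus lower in *h3.3kd*, and the difference in H3K36me3/H3 was 0.03 (SE 0.56), or -0.65 with no H3 denominator (limma adjusted p = 0.49). From 1000 to 500 bp before the start site the difference in H3K36me3/H3 was -0.77.

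The other marks of AT5G42280 split by replicate. H3K4me3/H3 in the first 25% was 1.22 and 1.63 in WT, -1.03 in *h3.3kd* replicate 1 and 1.38 in *h3.3kd* replicate 2. H2A.Z/H3 there was 1.08 and 1.31 in WT, -0.71 in *h3.3kd* replicate 1 and 0.86 in *h3.3kd* replicate 2. The lowest values of both came from *h3.3kd* replicate 1, with differences of -2.25 and -1.79, whereas those of replicate 2 were -0.25 and -0.45. Neither passed the test over all genes: the differences were -1.25 (SE 0.45) for H3K4me3 and -1.12 (SE 0.43) for H2A.Z, with limma adjusted p of 1.00 and 0.998. H3K36me3 was the mark with a low value in both replicates. For H3K4me3 and H2A.Z, however, replicate 2 was also the deposit without strand. In *h3.3kd* it held 59510220 and 68090065 reads, against 21004780 and 26222237 in replicate 1. A split by replicate and a split by deposit cannot be told apart for these 2 marks, so the loss cannot be called particular to H3K36me3. H1/H3 in the first 25% was -0.44 and 0.22 for WT against 0.19 for both *h3.3kd* libraries, and H3 was 2.83 and 2.68 for WT against 3.11 and 2.98 for *h3.3kd*, a difference of 0.29 (SE 0.31, limma adjusted p = 1.00).

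The limma adjusted p of AT5G42280, given as a description since the gene was picked on this contrast, was 0.000226. It stayed under 0.05 with 10 of 14 alternatives, and the difference lay between -2.34 and -1.79 over all 14. Adjusted p was 0.194 with limma-voom, 0.983 without a filter on low windows, 0.497 when WT replicate 2 was left out and 0.290 when *h3.3kd* replicate 1 was. Limma-voom and the fit without a filter each called 0% of all genes in this comparison. With no H3 denominator the difference was -1.79.

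The genes next to AT5G42280 had H3K36me3/H3 differences near 0 or above. On its 3′ side, VAR1 (AT5G42270), a protease of the chloroplast, had H3K36me3/H3 in the first 25% of 1.196 and 1.04 for WT against 1.58 and 1.52 for *h3.3kd*, a difference of 0.43 (SE 0.37). BGLU12 (AT5G42260), a beta-glucosidase, differed by -0.03 (SE 0.65), and the pseudogene AT5G42265 between them was not tested. On its 5′ side, AT5G42290, UBL5 (AT5G42300), a ubiquitin-like protein, and AT5G42310 differed by -0.08 (SE 0.45), 0.12 (SE 0.36) and 0.35 (SE 0.37). None of these 5 genes passed the test in any of the 15 comparisons.

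The H3K36me3 loss at AT5G42280 was not found at another C1 domain gene by the same test. Over the first 25% 1 of 148 C1 domain genes tested had a limma adjusted p under 0.05, AT5G42280 itself, against 0.0195% of all genes. The smallest adjusted p among the other 147 was 0.877. At an unadjusted p under 0.05 by limma there were 6 (4.05%), all with lower values in *h3.3kd*, against 3.43% of all genes. These 6 include AT5G42280, which was picked on this contrast. Differences of the other 147 ran from -1.40 to 0.90.

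AT2G17740 had the lowest of these other differences, with H3K36me3/H3 of -0.37 and -0.27 for WT against -2.13 and -1.31 for *h3.3kd*, a difference of -1.40 (SE 0.61). It rests on 54, 24, 9 and 14 reads, and with no H3 denominator it was -0.74. AT1G50190 was at 0.12 and 0.67 for WT against -0.65 and -0.81 for *h3.3kd*, a difference of -1.13 (SE 0.38) that became -0.41 with no H3 denominator. Both *h3.3kd* libraries lay below both WT libraries at these genes, but neither gene passed the test over all genes.

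AT2G13950, AT1G55390, AT1G44030 and AT3G45530 differed by -1.09, -1.01, -1.01 and -1.003. AT3G26550, just outside a bound of -1, with 0.48 and 0.47 for WT against -0.69 and -0.35 for *h3.3kd*, differed by -0.999 (SE 0.36) and by -0.56 with no H3 denominator. A difference of -1 or below was measured at 7 of 148 C1 domain genes (4.73%), AT5G42280 included, against 1.6% of all genes. Without AT5G42280, which was picked on this contrast, it was measured at 6 of the other 147. For AT2G13950 and AT1G44030 the difference with no H3 denominator was -0.10 and -0.38.

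At the other end, AT2G44390 had H3K36me3/H3 of -1.25 and -1.26 for WT against -0.54 and -0.15 for *h3.3kd*, a difference of 0.90 (SE 0.53) on a mean of 22.8 reads. AT4G01930 and AT4G01910, close neighbours on chromosome 4, differed by 0.49 (SE 0.33) and 0.46 (SE 0.34). AT2G21840, AT2G23100, AT4G02540 and AT5G03355 lay between 0.30 and 0.38. ULI3 (AT5G59920), named for UV-B light insensitivity, had 0.71 and 0.88 for WT against 1.29 and 0.84 for *h3.3kd*, a difference of 0.27 (SE 0.33). None of these 8 genes passed the limma test.

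The proteins most alike that of AT5G42280 came from genes without a called loss. The 5 C1 domain proteins most alike that of AT5G42280 were those of AT1G55380, AT1G55420 (EDA11), AT1G55390, AT1G55430 and AT1G55440, which make up 1 run of 5 genes on chromosome 1. They shared between 65.3% and 71.6% of aligned residues with it, against a median of 39.5% over the family. Their H3K36me3/H3 differences in the first 25% were -0.02, -0.29, -1.01, -0.32 and -0.37, with SE between 0.41 and 0.46. AT1G55390, the lowest of these, had -0.41 and 0.74 for WT against -1.34 and -0.35 for *h3.3kd*, and its groups overlapped. Their mean levels in WT lay between the 23.8th and the 46.1st percentile of all genes.

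**Figure D2:**
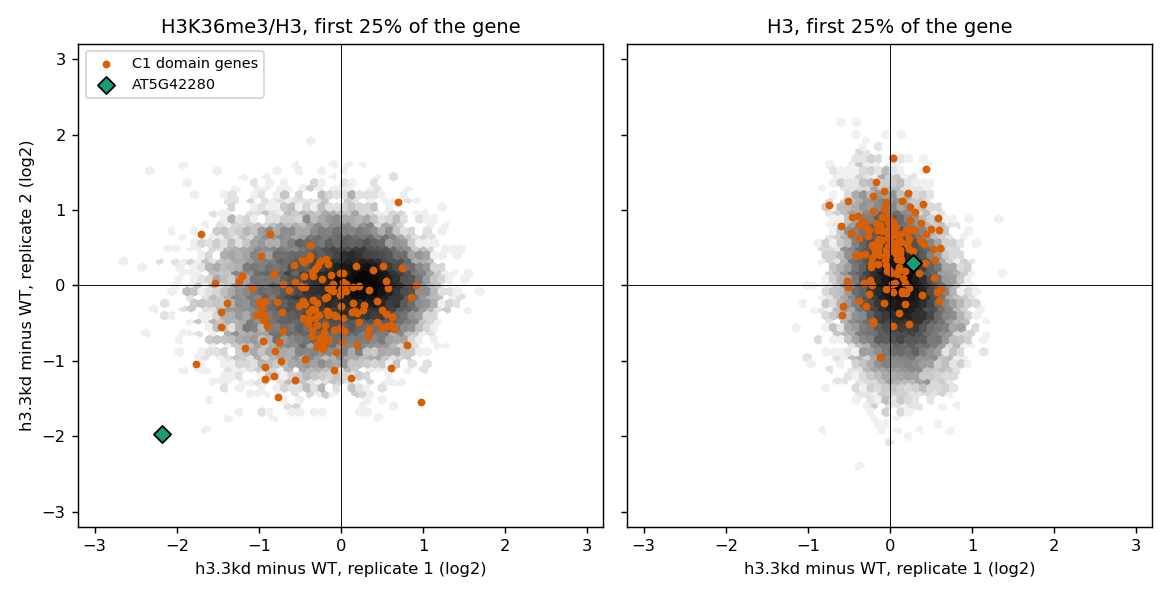
Difference between *h3.3kd* and WT (log2) within replicate 1 (x axis) and within replicate 2 (y axis) in the first 25%, for H3K36me3/H3 (left) and H3 (right). Grey shading counts all genes tested on a log scale, orange points are the C1 domain genes and the green diamond is AT5G42280, which stands apart at -2.19 and -1.97 in H3K36me3/H3 but not in H3.

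The C1 domain genes with the most H3K36me3 in WT were set beside AT5G42280. A total of 8 C1 domain genes had H3K36me3/H3 above 0.5 in the first 25% in WT: AT3G26240, AT1G60420, AT4G02540, AT5G42280, AT2G19650, ULI3, AT4G01920 and AT4G01740, at means between 0.78 and 1.202. AT3G26240 was the highest, with 0.95 and 1.45 for WT against 1.497 and 1.07 for *h3.3kd*. AT1G60420 had 0.92 and 1.15 for WT against 1.201 and 0.88 for *h3.3kd*, a difference of 0.0083 (SE 0.34). Apart from AT5G42280, differences in these genes lay between -0.25 and 0.31, with SE between 0.32 and 0.36. The bound of 0.5 was chosen after the values were seen.

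Small negative differences were common in the family. H3K36me3/H3 in the first 25% was on average lower in *h3.3kd* at 117 of 148 C1 domain genes (79.1%), against 48.3% of all genes, with a median difference of -0.26 beside 0.02 over all genes. Without AT5G42280, 116 of the other 147 were lower, also with a median of -0.26. Both *h3.3kd* libraries lay below both WT libraries at 40 of 148 (27.0%), against 14.2% of all genes. Over the last 50%, 142 of 149 were lower (95.3%, all genes 70.6%), with a median of -0.40 beside -0.17, and 59 of 149 had no overlap (39.6%, all genes 28.7%). In the promoter 97 of 148 were lower (65.5%, all genes 49.7%), with a median of -0.15 beside 0.0041, and 30 had no overlap (20.3%, all genes 12.4%). Without *h3.3kd* replicate 1 the promoter median was 0.07.

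These differences moved with the H3 libraries. H3 itself was lower in *h3.3kd* in the first 25% at 21 of 149 C1 domain genes (14.1%, all genes 40.4%) and higher at 128, with a median difference of 0.25 beside 0.06 over all genes. The median was 0.0064 within replicate 1 and 0.49 within replicate 2, and it was 0.44 without WT replicate 1 and 0.04 without WT replicate 2. The median H3 level of the family was 2.53 in WT replicate 1, 2.16 in WT replicate 2, 2.59 in *h3.3kd* replicate 1 and 2.67 in *h3.3kd* replicate 2. Both *h3.3kd* libraries lay above both WT libraries at 57 of 149 (38.3%, all genes 18.5%) in the first 25% and at 79 of 149 (53.0%, all genes 21.7%) in the last 50%.

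With no H3 denominator, H3K36me3 in the first 25% was lower at 79 of 148 C1 domain genes, with a median of -0.03 beside 0.05 over all genes. With H3 replicate 1 as denominator for both replicates, 82 were lower and the median was -0.043 beside -0.051. Without WT replicate 2, 76 were lower and the median was -0.0044, and without *h3.3kd* replicate 1, 79 were lower and the median was -0.06. Within the last 50% the median was -0.09 beside -0.10 with no H3 denominator. With matched H3 the last-50% median ran from -0.66 without *h3.3kd* replicate 2 (144 lower) to -0.13 without *h3.3kd* replicate 1 (100 lower). Without WT replicate 1 the median was -0.50 in the first 25%, with 130 lower. Here and for the other marks, counts of lower genes with another denominator or without a replicate stand without the share of all genes. They do not compare the family with all genes. The part of the H3 libraries in the family's lower ratios was not tested. For AT5G42280 the difference was -1.92 without WT replicate 2 and -2.07 with H3 replicate 1 as denominator.

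**Figure D3:**
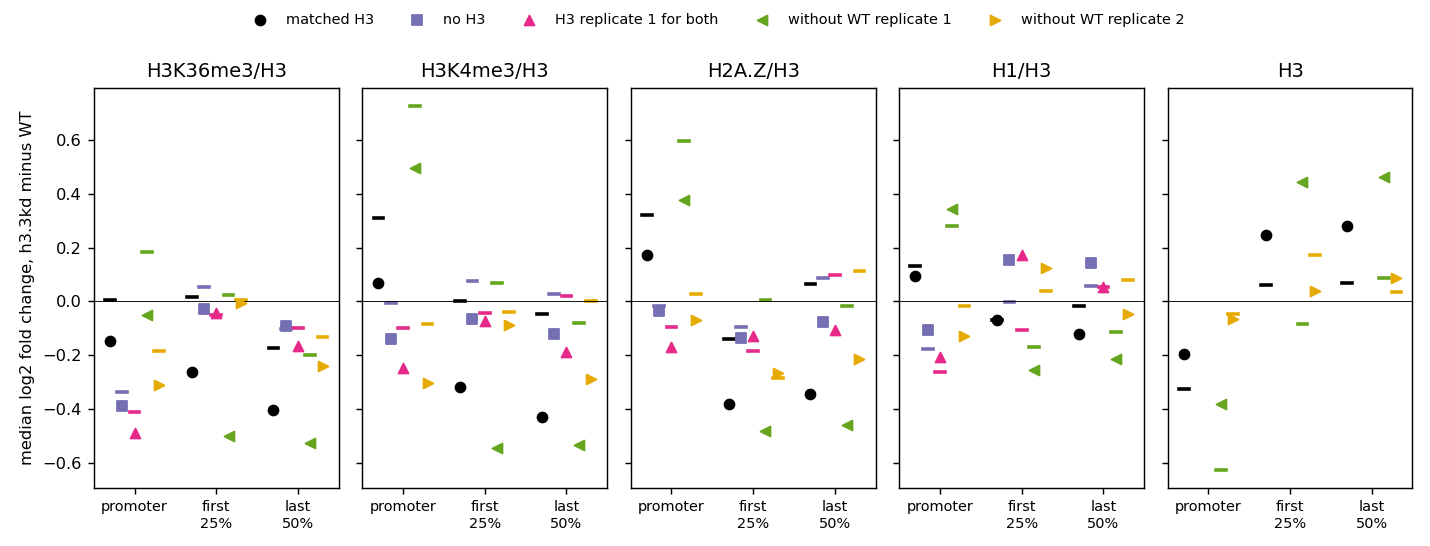
Median log2 fold change (*h3.3kd* minus WT) over the C1 domain genes (symbols) and over all genes tested (bars of the same colour), for each antibody and window, with the matched H3 library as denominator, with none, with H3 replicate 1 for both replicates, and without either WT replicate. Within the first 25% the family's median H3K36me3/H3 was -0.26 with matched H3 and -0.03 with none.

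In the last 50% of the gene no C1 domain gene passed in H3K36me3/H3 (0 of 149 by limma, all genes 0.123%), and limma-voom called none (all genes 0%). AT4G11547 was called with the replicate block (adjusted p = 0.0342, SE 0.22), with the GC correction and without WT replicate 1, at shares of all genes called of 0.281%, 0.632% and 0.285%. At an unadjusted p under 0.05 there were 10 (6.71%, all genes 6.76%), and the smallest adjusted p was 0.0687, at AT4G11547 (-0.05 and 1.23 for WT against -0.31 and -0.24 for *h3.3kd*). The ratio of 1.23 is that of WT replicate 2, where H3 of this gene was low, as given below for H2A.Z. WT replicate 1, at -0.05, lay much nearer to the *h3.3kd* values. AT5G37620 had -0.29 and -0.65 for WT against -1.95 and -0.89 for *h3.3kd*, a difference of -0.95 (SE 0.55), and AT2G28270 differed by -0.93 (SE 0.49). The highest differences were 0.35 (SE 0.42) at AT2G37800 and 0.31 (SE 0.50) at AT2G44400. At the promoter 0 of 148 passed by limma (all genes 0.0193%), 0 had an unadjusted p under 0.05 (all genes 2.75%) and limma-voom called 0 (all genes 0%). With H3 replicate 1 as denominator for both replicates, 13 were called there (8.78%, all genes 10.2%), with a median of -0.49. Both replicates of a genotype then share 1 H3 library, so these p-values leave out the spread between H3 libraries. AT2G02610 and AT5G43520 had the lowest promoter values, at -1.26 (SE 0.66) and -1.11 (SE 0.68), and AT5G48320 and AT5G22355 the highest, at 0.67 (SE 0.44) and 0.67 (SE 0.42).

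No C1 domain gene passed the limma test in H3K4me3/H3. For the first 25% the count was 0 of 149 (all genes 0%), with 10 at an unadjusted p under 0.05 (6.71%, all genes 4.51%), and in the last 50% 0 of 149 (all genes 0.0077%), with 32 unadjusted (21.5%, all genes 4.69%). In the promoter it was 0 of 148 (all genes 0.0694%), with 2 unadjusted (1.35%, all genes 5.58%). Limma-voom called 0 in each (all genes 0.00385% in the promoter and 0% in the first 25% and the last 50%). Without WT replicate 1, limma called 17 in the promoter (11.5%, all genes 31.2%), 11 in the first 25% (7.38%, all genes 5.45%) and 13 in the last 50% (8.72%, all genes 3.76%). Ratios were lower in *h3.3kd* at 122 of 149 in the first 25% (81.9%, all genes 49.6%) and at 141 of 149 in the last 50% (94.6%, all genes 56.4%), with medians of -0.32 and -0.43. Both *h3.3kd* libraries lay below both WT libraries at 57 (38.3%, all genes 14.5%) and at 94 (63.1%, all genes 15.7%).

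The first-25% median for H3K4me3 ran from -0.54 without WT replicate 1 (128 lower) to -0.09 without WT replicate 2 (94 lower). The same medians were closer to 0 with another denominator. With no H3 denominator they were -0.07 in the first 25% and -0.12 in the last 50%, beside 0.08 and 0.03 over all genes, and 95 and 117 of 149 were lower. Besides AT5G42280, AT3G26250 had the lowest H3K4me3/H3 in the first 25%, with 0.31 and -0.08 for WT against -0.999 and -1.19 for *h3.3kd*, a difference of -1.22 (SE 0.47). It was also lowest in the last 50%, with 0.15 and 0.36 for WT against -0.31 and -1.13 for *h3.3kd*, followed by AT5G44770 at -0.96 (SE 0.34). AT2G44390 and AT5G55770 had the highest differences in the first 25%, 0.67 (SE 0.46) and 0.50 (SE 0.31), and in the last 50% AT2G44400 and AT2G27660, 0.80 (SE 0.29) and 0.29 (SE 0.29). Promoter differences ran from -0.81 (SE 0.70) at AT3G45530 and -0.69 (SE 0.36) at AT4G01925 to 0.85 (SE 0.64) at AT5G54050 and 0.97 (SE 0.38) at AT5G55800. The promoter median was 0.07 beside 0.31 over all genes, and -0.14 beside -0.0047 with no H3 denominator. It was 0.49 without WT replicate 1 (28 lower) and -0.30 without WT replicate 2 (111 lower).

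H2A.Z/H3 was high over the C1 domain genes in WT. For the last 50% the median H2A.Z/H3 of the C1 domain genes was 0.90 beside 0.06 over all genes. The median C1 domain gene stood at percentile 88.2 of all genes, and 140 of 149 lay above the median of all genes. In the first 25% the median was 1.05 beside 0.61 (percentile 85.2), with 102 of 149 in the top 25% of all genes. H1/H3 was high as well, with a median of 0.17 in the first 25% beside -0.18 (percentile 81.7) and 0.36 in the last 50% beside 0.12 (percentile 82.6). H3K36me3/H3 was low, with a median of -0.39 in the first 25% beside 0.38, and 14 of 148 lay above the median of all genes. These are descriptions of 2 WT libraries per mark, whose SD had a median of 0.17 in the last 50% for H2A.Z and 0.34 in the first 25% for H3K36me3.

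**Figure D4:**
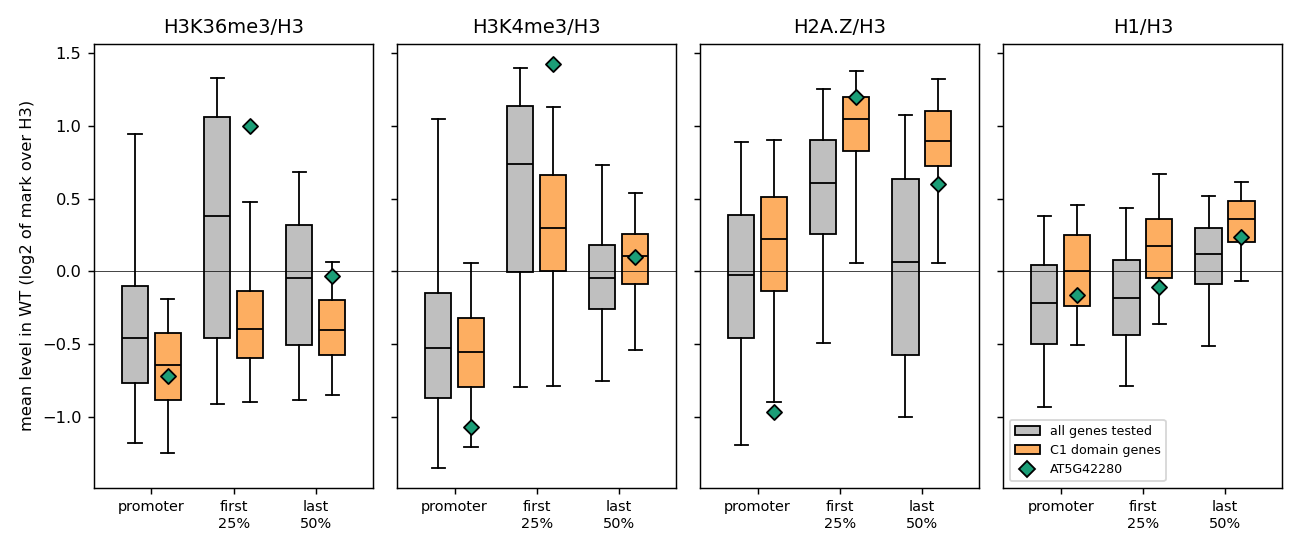
Mean level in WT (log2 of mark over H3) of all genes tested (grey) and of the C1 domain genes (orange) in the promoter, the first 25% and the last 50%, with AT5G42280 as a green diamond. Boxes span the quartiles with the median as a line, and whiskers the 5th to the 95th percentile. The C1 domain genes had high H2A.Z/H3 and H1/H3 and low H3K36me3/H3, and AT5G42280 stood far above their H3K36me3/H3 median of -0.39 in the first 25%.

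Within the family, the highest H2A.Z/H3 in the first 25% was at AT1G29180 (1.04 and 2.41 in the WT libraries) and AT5G02330 (1.61 and 1.53), and the lowest at AT5G29624 (-2.25 and -1.43) and AT2G13895 (-1.87 and -0.60). AT5G29624 and AT2G13895 were also lowest in H3K36me3/H3, at -1.41 and -1.36. In H3K4me3/H3, AT3G26240 (1.52) and AT5G42280 (1.42) were highest, and AT5G29624 (-1.31) and AT4G13992 (-1.13) lowest. In H1/H3, AT2G13950 (1.13) and AT4G11540 (0.85) were highest, and AT4G02540 (-0.81) and AT5G03355 (-0.64) lowest.

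Across C1 domain genes, levels in the first 25% correlated with Pearson's r of 0.75 between H3K36me3 and H3K4me3 (n = 148, all genes 0.90) and 0.69 between H3K4me3 and H2A.Z (n = 149, all genes 0.23). Between H3K36me3 and H2A.Z r was 0.35 (n = 148, all genes -0.05). The genes are not independent replicates, and the ratios share the H3 denominator. The 8 genes above 0.5 in H3K36me3/H3 had a median H2A.Z/H3 of 0.15 in the last 50%, against 0.92 over the other 140.

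In *h3.3kd* no C1 domain gene passed the limma test in H2A.Z/H3: 0 of 149 in the first 25% (all genes 0%), 0 of 149 in the last 50% (all genes 0%) and 0 of 148 in the promoter (all genes 0%). At an unadjusted p under 0.05 there were 16 in the first 25% (10.7%, all genes 3.54%), 24 in the last 50% (16.1%, all genes 8.4%) and 2 in the promoter (1.35%, all genes 5.06%), and limma-voom called 0 in each (all genes 0%). Leaving out WT replicate 1, limma called 10 in the promoter (6.76%, all genes 20.1%), 6 in the first 25% (4.03%, all genes 3.92%) and 10 in the last 50% (6.71%, all genes 6.89%). Leaving out WT replicate 2, it called 8 in the last 50% (5.37%, all genes 21.3%). Ratios were lower at 130 of 149 in the first 25% (87.2%, all genes 67.9%) and at 135 of 149 in the last 50% (90.6%, all genes 42.9%), with medians of -0.38 beside -0.14 and -0.34 beside 0.07. No overlap in the lower direction was seen at 89 (59.7%, all genes 26.2%) and 92 genes (61.7%, all genes 18.6%).

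The last-50% median for H2A.Z ran from -0.46 without WT replicate 1 to -0.22 without WT replicate 2. With no H3 denominator the H2A.Z medians were -0.14 beside -0.09 in the first 25% and -0.08 beside 0.09 in the last 50%. AT3G26250 had the lowest first-25% value, with 1.05 and 1.204 for WT against -0.10 and 0.10 for *h3.3kd*, a difference of -1.13 (SE 0.31), close to the -1.12 of AT5G42280, and its groups did not overlap. AT4G13992 and AT3G27473 had the highest, at 0.64 (SE 0.41) and 0.53 (SE 0.32). In the last 50% AT4G11547 (-1.003, SE 0.32) and AT2G44390 (-0.96, SE 0.34) were lowest, and both had low H3 in WT replicate 2, at 1.12 and 0.96, against 2.13 and 2.06 in WT replicate 1. The highest there were AT2G44400 (0.32, SE 0.29) and AT2G13895 (0.30, SE 0.56). Lowest at the promoter were AT4G01925, at -0.78 (SE 0.36) with 0.88 and 1.54 for WT against 0.44 and 0.43 for *h3.3kd*, and AT3G46800 at -0.60 (SE 0.41). AT1G65180 and AT2G02640 were highest, both at 0.86 (SE 0.40 and 0.51).

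H1/H3 differences were mostly small. No C1 domain gene passed the limma test, with 0 of 149 in the first 25% (all genes 0%), 0 of 149 in the last 50% (all genes 0%) and 0 of 148 in the promoter (all genes 0%). Unadjusted p under 0.05 was reached by 5 (3.36%, all genes 2.73%), 10 (6.71%, all genes 2.79%) and 3 (2.03%, all genes 2.23%), and limma-voom called 0 in each (all genes 0%). Over the first 25% the ratio was lower at 90 of 149 (60.4%, all genes 60.4%), with a median of -0.07 in both sets. That median was -0.25 without WT replicate 1 (108 lower) and 0.12 without WT replicate 2 (51 lower). Over the last 50% 108 of 149 were lower (72.5%, all genes 53.6%) and 52 had no overlap (34.9%, all genes 15.8%). The median there ran from -0.21 without WT replicate 1 to -0.05 without WT replicate 2.

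In the first 25% and the last 50% the direction for H1 turned with the denominator. With none, H1 in the last 50% was lower at 16 of 149 C1 domain genes with a median of 0.14 beside 0.06, where it was -0.12 beside -0.02 with matched H3, and in the first 25% 19 of 149 were lower with a median of 0.16 beside -0.0024. AT2G13950 had the lowest H1/H3 difference in the first 25%, with 0.85 and 1.42 for WT against 0.23 and 0.30 for *h3.3kd* (-0.87, SE 0.32), and AT3G11390 was at -0.64 (SE 0.27). AT5G55770 and AT1G55380 had the highest, at 0.63 (SE 0.27) and 0.62 (SE 0.28). Over the last 50% AT4G11547 and AT2G44390 were lowest (-0.86, SE 0.26, and -0.75, SE 0.33), and AT2G44400 and AT2G44370 highest (0.53, SE 0.32, and 0.40, SE 0.27). At the promoter AT2G02610 and AT3G45530 were lowest (-1.16, SE 0.35, and -0.58, SE 0.34), and AT4G01920 and AT3G06990 highest (1.30, SE 0.54, and 0.79, SE 0.39).

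In H3 itself 0 of 149 C1 domain genes passed in the first 25% (all genes 0.0116%), 0 of 149 in the last 50% (all genes 0%) and 0 of 148 in the promoter (all genes 0%) by limma. The counts at an unadjusted p under 0.05 were 5 (3.36%, all genes 2.15%), 17 (11.4%, all genes 2.85%) and 1 (0.676%, all genes 1.55%), and limma-voom called 0 in each (all genes 0%). AT2G13950 had the largest positive difference in the first 25%, 0.99 (SE 0.38), with 1.66 and 0.77 for WT against 2.10 and 2.32 for *h3.3kd*, which is the same gene that was low in H3K36me3/H3 and in H1/H3. AT1G29180 followed at 0.86 (SE 0.39), and AT5G54050 and AT2G44390 were lowest at -0.53 (SE 0.38) and -0.48 (SE 0.41). AT2G44390 and AT4G11547 were highest in the last 50% (0.87, SE 0.38, and 0.84, SE 0.35), and AT2G37820 and AT2G44400 lowest (-0.24, SE 0.25, and -0.24, SE 0.27). Promoter H3 ran from -0.93 (SE 0.71) at AT1G65180 and -0.90 (SE 0.82) at AT4G01920 to 0.48 (SE 0.73) at AT5G46670 and 0.50 (SE 0.27) at AT4G01925. When WT replicate 1 was left out, 5 passed in the promoter (3.38%, all genes 6.75%), 10 in the first 25% (6.71%, all genes 5.37%) and 73 in the last 50% (49.0%, all genes 21.0%), and 0 passed when any other replicate was left out.

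Uniqueness of sequence limited a few C1 domain genes. Within the first 25% 128 of the 151 genes had only 50-base words that occur once in the genome, and 11 had under 90% of them. AT4G16015 had 10.7%, AT2G02610 30% and AT2G02640 31.9%. AT2G02610 and AT2G02640 also had the lowest H3 in WT there (-0.12 and 0.09). Reads that mapped to more than 1 place were dropped, so levels of these genes are uncertain. The first 25% of AT5G42280, AT2G17740 and AT1G60420 were wholly unique by exact match. The authors allowed mismatches in mapping, so reads with a near copy elsewhere may also have been dropped.

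Genes that carry a C1 or C1-like domain by background knowledge, but not in their product text, had no called loss either. DGK1 (AT5G07920) and DGK2 (AT5G63770), diacylglycerol kinases that turn diacylglycerol into phosphatidic acid, differed in first-25% H3K36me3/H3 by 0.39 (SE 0.35) and 0.09 (SE 0.35). AT4G31240, annotated as the nucleoredoxin NRX2, had 1.18 and 0.12 for WT against 0.56 and 0.26 for *h3.3kd*, a difference of -0.24 (SE 0.32). All 3 had a limma adjusted p of 1.00.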

How the data were processed

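The authors mapped the reads with Bowtie to TAIR10, kept reads that map to 1 place and removed reads at the same coordinates. The deposited files list 1 read position per line (other unit, not normalized), all of them inside the TAIR10.1 chromosomes. At most 2 reads were found at a position. The C1 domain genes, gene lists and windows were chosen with earlier results of these data known. Reads of 50 bp were placed by their middle and scaled to 1000000 reads. Limma 3.58.1 (lmFit, eBayes with trend, R 4.3.3) compared 2 with 2 libraries, with Benjamini-Hochberg adjustment over all windows of a comparison and a threshold of 0.05. It was tested on simulated data with 200 changed windows: in first-25% H3K36me3/H3 it recovered 12% of log2 changes of 1 and 84% of changes of 2 with 8.57% false calls, and limma-voom 18% and 91% with 4.39%. The simulated reads had a fixed dispersion that was not estimated from these libraries. Changed windows were drawn from those with more reads than the filter asks for. Recovery in the real libraries was not measured and may be lower. Proteins were translated from TAIR10.1 and aligned with Biopython. Alternatives were 14, among them no H3 denominator, limma-voom and a replicate block. By rule the text names AT5G42280, called genes, the 8 lowest and 8 highest differences in first-25% H3K36me3/H3 and the 2 lowest and highest elsewhere or the extreme levels in WT, neighbours, and like or related genes. AT4G11547 in H3K36me3, AT1G29179 and the 8 genes of high H3K36me3 were added after values were seen.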

Additional observations from a re-analysis of the deposited data

How the results depend on the processing

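All 15 counts of called C1 domain genes were recomputed under the 14 alternatives, except that those on the denominator could not apply to H3 alone. With H3 replicate 1 as denominator for both replicates, 13 were called in the promoter for H3K36me3 (8.78%, all genes 10.2%, median log2 fold change -0.49), 1 in the promoter (all genes 3.23%), 2 in the first 25% (1.34%, all genes 1.78%) and 2 in the last 50% (1.34%, all genes 0.82%) for H3K4me3, 12 in the first 25% for H2A.Z (8.05%, all genes 11.2%), and 3 in the promoter (2.03%, all genes 3.28%) and 6 in the first 25% (4.03%, all genes 2.8%) for H1. In the fits with H3 replicate 1 both replicates of a genotype share 1 H3 library, so their p-values leave out the spread between H3 libraries. The count in the first 25% for H3K36me3 was 0 with limma-voom (all genes 0%) and 0 without a filter (all genes 0%). In the last 50%, the GC correction gave 1 for H3K36me3 (all genes 0.632%) and 3 for H3K4me3 (2.01%, all genes 0.419%). The labels give replicate numbers no meaning, and deviations of same-numbered libraries correlated between -0.25 and 0.20. For H3K4me3 and H2A.Z, replicate 2 of both genotypes shared a file format and a higher depth, and these correlations lay between 0.011 and 0.15. The replicate block gave 1 called gene in the last 50% for H3K36me3 and changed no other count of called C1 domain genes. Leaving out 1 replicate at a time, the counts ran from 0 to 1 in the first 25% and last 50% for H3K36me3 and the last 50% for H1, from 0 to 17, 11 and 13 in the promoter, first 25% and last 50% for H3K4me3, from 0 to 10, 6 and 10 for H2A.Z, and from 0 to 5, 10 and 73 for H3. The highest counts for H3K4me3, H2A.Z and H3 came without WT replicate 1, and H2A.Z in the last 50% had 8 without WT replicate 2. The cause was not tested. Each fit with 1 replicate left out holds only 1 library in a group. The counts from these fits, the 1 for H1 among them, stand here without the share of all genes. They do not compare the family with all genes. Depth limits the windows: AT2G17740 had 9 to 54 H3K36me3 reads.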
